A study of Danio rerio with 6 samples.

Results

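Adult zebrafish of both sexes were compared with juveniles in 1 table of normalised read counts, over the 13748 of 13927 transcripts with a value of at least 10 in at least 2 of the 6 fish. The adult mean gave each sex equal weight, so that a transcript could be called because both sexes moved or because 1 sex moved far. The comparison was therefore followed in males and in females separately. The tested transcripts came from 13408 loci. The other 179 transcripts had means of at most 99.8 normalised counts (median 9.82) and were not tested.

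RNA was sequenced from the whole bodies of 2 adult males, 2 adult females and 2 juveniles of 28 days post fertilisation (dpf), each library being 1 fish. None of the fish was treated, and all had been euthanised with Tricaine by the breeder before they were collected. The strain and the age of the adults are not given in the sources used here. The labels give no sex for the juveniles. The study assumes that both were male, on the ground of gene expression in these fish, so this assumption is not independent of the values below and was not used to group them. A difference between adults and juveniles and a difference in sex cannot be told apart where the juveniles were of 1 sex. The table numbers the juveniles 2 and 3, and these numbers are used below. The labels number them 1 and 2, so which juvenile of the table is which labelled sample is not known.

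The table is a selection. In a comparison made by the authors the adjusted p is under 0.05 for each of the 13927 transcripts, and the direction of that comparison equals the direction of females against juveniles in 13927 of 13927 transcripts. A female difference from juveniles is thus given below as a description and supports nothing. Males against juveniles is the comparison that the selection did not use, although both comparisons share the same 2 juveniles. The difference between males and females is also the difference between the 2 effects against juveniles, because the juvenile mean cancels out.

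Between the juvenile stage and adulthood zebrafish finish their growth and their gonads mature into testes or ovaries. Laboratory zebrafish lack a simple sex chromosome system, and their gonads first pass through an ovary-like stage. The ovary of a mature female fills much of the body cavity with oocytes, which store large amounts of maternal RNA, while the liver makes yolk proteins under the control of oestrogen. In whole-body RNA, more or fewer cells of a type cannot be told apart from more or less RNA per cell.

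The reads recovered from the table were 13980849 and 15881031 in males, 18439319 and 15947424 in females and 17243855 and 18635087 in juveniles. They are the reads of the selected transcripts and not the depth of the libraries. In 1 fish, 3 reads were worth 2.40 to 4.23 normalised counts. Such floors, and the counting intervals given below, cover counting error only. Over all tested transcripts the root mean square log2 distance between fish was 1.78 to 1.99 for the 4 pairs of a male and a juvenile, 3.02 to 3.28 for the 4 pairs of a female and a juvenile and 2.21 to 2.49 for the 4 pairs of a male and a female. Within a group it was 0.93 for males, 0.92 for females and 0.80 for juveniles. The selection of the table bears on the female distances from juveniles.

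Adults together were called higher than juveniles at 6703 transcripts (48.8% of those tested) and lower at 5247 (38.2%), by limma on log2 (normalised count + 1) with Benjamini-Hochberg adjustment at 0.05. This scale understates the change of weakly expressed transcripts. The values of all 4 adults lay above both juveniles at 4156 transcripts (30.2%) and below both at 4766 (34.7%). Over all tested transcripts the median difference was 0.59 on the log2 scale in adults, -0.11 in males and 1.09 in females. These medians were taken separately and do not add up. With upper-quartile scaling they were 0.16, -0.04 and 0.14, and with scaling to the summed reads 0.69, 0.34 and 0.78. Of the calls, 56.1% were higher in adults, and with upper-quartile scaling 45.3% were. Without juvenile 3 the transcripts called lower numbered 2876. Females enter the adult mean, so the selection bears on these counts too.

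Only part of these adult calls came with a call in the same direction in males. No call in males does not show that males were unchanged. Of the 6703 transcripts called higher in adults, males were called higher at 2208 (32.9%), had no call at 4439 (66.2%) and were called lower at 56. The male mean lay below the juvenile mean at 1040 of them (15.5%). Of the 5247 transcripts called lower in adults, males were called lower at 2356 (44.9%), had no call at 2888 (55.0%) and were called higher at 3, and the male mean lay above the juvenile mean at 68 (1.30%). All 4 adults lay beyond both juveniles at 4111 of the higher transcripts (61.3%) and at 4709 of the lower ones (89.7%). A call in both sexes with no call between them was made at 1174 of the higher transcripts (17.5%) and at 1651 of the lower ones (31.5%).

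Males taken alone were called higher than juveniles at 2228 transcripts (16.2%) and lower at 2561 (18.6%). Both males lay above both juveniles at 4341 transcripts (31.6%) and below both at 5650 (41.1%). Females were called higher than juveniles at 7713 transcripts (56.1%) and lower at 5905 (43.0%), which the selection sets. Males were called higher than females at 2761 transcripts (20.1%) and lower at 5564 (40.5%). The male counts rested on few fish. Without juvenile 3 they were 1034 higher and 569 lower, without juvenile 2 they were 1325 and 977, without male 1 they were 1478 and 1371, and without male 2 the lower calls were 1651. Of the male calls 46.5% were higher, and when fish were scaled to their summed reads 75.2% were, with 4125 higher and 1361 lower. With upper-quartile scaling the female calls were 45.0% higher, against 56.6% as deposited.

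**Figure D1:**
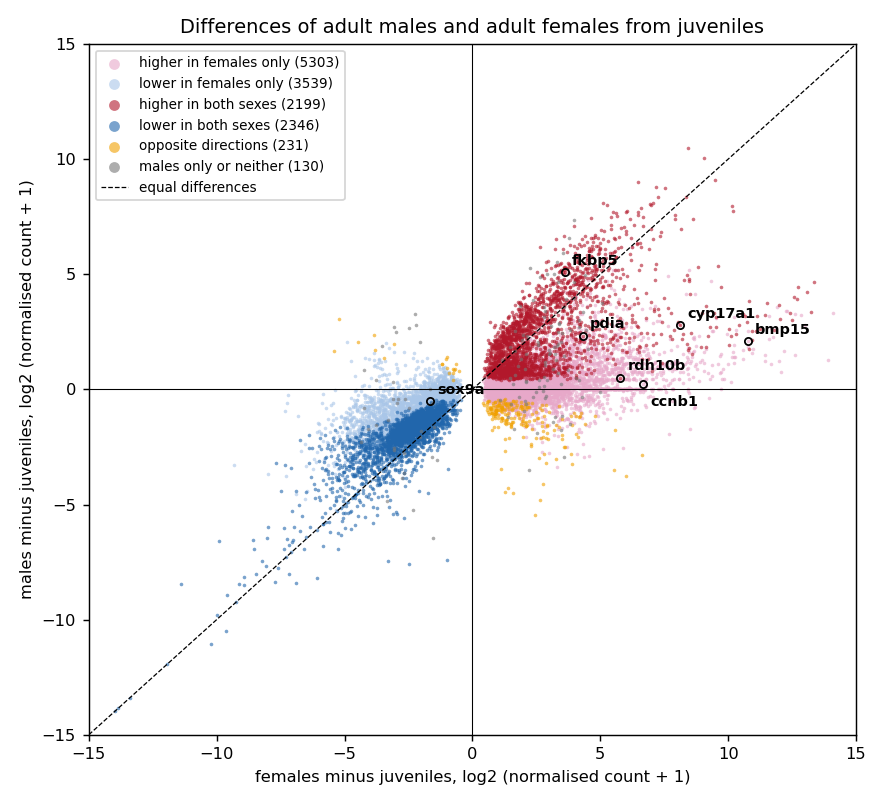
Difference from juveniles of adult males (y axis) and of adult females (x axis), both on the log2 (normalised count + 1) scale, for the 13748 tested transcripts, coloured by the calls in each sex (limma, adjusted p under 0.05). The 2199 transcripts higher in both sexes and the 2346 lower in both lie on the same side of 0 on both axes. Male and female levels were within 2-fold of each other at 56.9% and 72.7% of them with the deposited scaling. The 5303 higher in females only lie along the horizontal axis at a median male difference of 0.20. A gap lies around 0 on the x axis, where the table's selection holds few transcripts.

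Both sexes were called in the same direction at 4545 transcripts (33.1% of those tested), of which 2199 were higher and 2346 lower than in juveniles. A further 8842 (64.3%) were called in females only, 13 in males only, 231 (1.68%) in opposite directions and 117 in neither sex. At 2825 of the 4545 shared transcripts the sexes had no call between them, which does not show that they were equal. Leaving out fish moved the calls of the shared classes but not the directions. Without any 1 fish all 2199 and all 2346 transcripts kept their directions in both sexes, which a call over all fish favours. The transcripts higher in both sexes numbered 979 without juvenile 3, 1265 without juvenile 2 and 1456 without male 1. Those lower in both sexes numbered 524 without juvenile 3, 897 without juvenile 2, 1225 without male 1 and 1480 without male 2. Of the 2199 transcripts 943 kept their calls in both sexes without juvenile 3, and of the 2346 it was 513. Scaled to the summed reads of each fish (total scaling), the classes held 3683 and 1304 transcripts, and with upper-quartile scaling 2018 of the 2199 had both sexes above the juveniles.

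**Figure D2:**
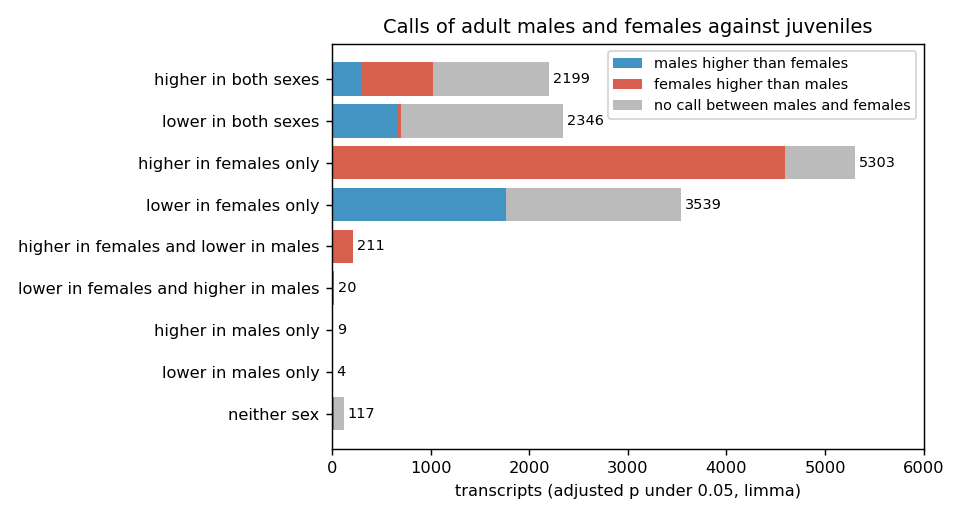
Number of transcripts by their calls in adult males and adult females against juveniles (limma, adjusted p under 0.05), each bar split by the call of males against females. Of the 2346 transcripts lower in both sexes 1651 had no call between the sexes, and of the 5303 higher in females only 4593 were higher in females than in males.

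The transcripts higher in both sexes had median normalised counts of 540 and 548 in males, 626 and 696 in females and 135 and 127 in juveniles. Every adult median lay above that of either juvenile, which the rule of the class sets. The median difference from juveniles was 2.05 in males and 2.22 in females on the log2 scale, and it was 2.03 and 2.25 with groups at 0 reads set to the floor of 3 reads. The male and female levels were within 2-fold of each other at 56.9% of them and over 4-fold apart at 14.0%. Males were called higher than females at 307, females higher than males at 718, and 1174 (53.4%) had no call between the sexes, which was 535 without juvenile 3 and 687 without juvenile 2. Called and at least 2-fold higher in both sexes were 1586 transcripts, at least 4-fold 864 and at least 16-fold 247, of which 211 had no call between the sexes.

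The transcripts lower in both sexes had median normalised counts of 121 and 126 in males, 89.4 and 77.5 in females and 416 and 463 in juveniles. The median difference from juveniles was -1.87 in males and -2.49 in females, and it was -1.88 and -2.52 with groups at 0 reads set to the floor. Male and female levels were within 2-fold of each other at 72.7% of the transcripts and over 4-fold apart at 4.56%. The share within 2-fold was thus the larger among the transcripts lower in both sexes, but the other scalings turned this order, with 18.0 to 37.0% for the lower and 40.1 to 49.0% for the higher transcripts. Males were called higher than females at 666, females higher than males at 29, and 1651 (70.4%) had no call between the sexes. This last count was 384 without juvenile 3, 639 without juvenile 2, 959 without male 1 and 513 to 1059 with the other scalings. At least 2-fold lower in both sexes were 2141 transcripts, at least 4-fold 966 and at least 16-fold 128, of which 117 had no call between the sexes.

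The female change was the larger at 83.1% of the transcripts lower in both sexes and at 52.5% of those higher in both. Other scalings gave 94.2 to 96.5% for the lower transcripts and 26.3 to 36.4% for the higher ones. Which sex had changed more among the transcripts that rose in both therefore turned with the scaling. The other scalings were estimated on the selected transcripts only. The selection thus bears on them too, and they do not decide which scaling is right. Each of the other scalings lowered females relative to males, so it could only raise the share among the transcripts that fell. That this share stayed high is thus no support for it. The selection on females against juveniles bears on both shares as well.

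These classes took very different shares of the reads. Transcripts higher in both sexes held 34.4% and 30.9% of the table's reads in males and 28.4% and 29.0% in females, against 7.47% and 7.35% in juveniles. The 4 adults lay close together, and that all were above both juveniles follows from the rule of the class. Transcripts lower in both sexes held 11.9% and 13.4% of the reads in males and 5.72% and 4.42% in females, against 50.8% and 50.1% in juveniles. A single transcript among them took 1.16% and 1.99% of the reads in males and 0.888% and 0.635% in females, against 12.2% and 11.2% in juveniles. Without the 10 transcripts highest in juveniles, this class still held 8.02% and 8.0% of the reads in males and 3.40% and 2.70% in females, against 19.9% and 21.2% in juveniles. A share depends on all other transcripts of the table, so the share of 1 class falls when another grows.

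**Figure D3:**
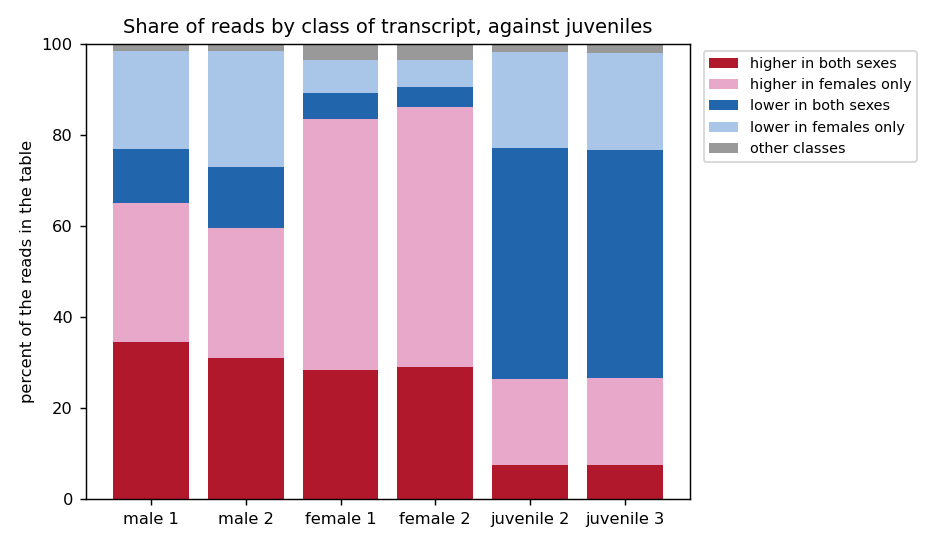
Percent of each fish's reads in the table (y axis) by class of transcript, for 2 adult males, 2 adult females and 2 juveniles. Transcripts lower in both adult sexes held 4.42 to 13.4% of the reads in the adults and 50.8% and 50.1% in juveniles, and those higher in females only held 55.0% and 57.1% in females.

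Some transcripts were read at 1 stage only. Reads in all 4 adults and 0 reads in both juveniles were found for 250 transcripts, 167 of which had at least 3 reads in each adult. The reverse, 0 reads in all 4 adults and reads in both juveniles, was found for 20. The largest shared changes were taken from transcripts that averaged 100 normalised counts or more and were called in both sexes in 1 direction, with all 4 adults beyond both juveniles (1727 higher and 1643 lower). They were picked for their calls and their size, so their folds and adjusted p against juveniles are a description and support nothing. The table pairs these transcripts with no gene name, so they are given by their assembly identifiers.

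MSTRG.2995.1 had 524 and 569 normalised counts in males and 753 and 678 in females, and 0 reads in both juveniles. All 4 adults were thus far above the juveniles and near each other. It was at least 426-fold higher in adults (adjusted p = 6.02e-05), counting 3 reads over the juveniles, and males and females were not called apart (adjusted p = 0.374). MSTRG.30948.1 had 2507 and 1855 normalised counts in males and 1080 and 1112 in females, against 3.17 and 0 in juveniles. Both males lay above both females here, without a call (adjusted p = 0.225). The sexes were called apart with upper-quartile (0.0467) and total scaling (0.0457), a pseudocount of 10 (0.0192), edgeR (0.0431), DESeq2 (0.00118) and without juvenile 2 (0.0278) or juvenile 3 (0.0233). Its ratio of adults to juveniles was 1032 (95% exact Poisson interval of the 3 juvenile reads 353 to 5005).

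MSTRG.12873.1 and MSTRG.12874.1 had 0 reads in all 4 adults. The first had 15144 and 17373 normalised counts in juveniles, which makes adults at least 21389-fold lower, counting 3 reads over the 4 adults. The second had 12818 and 17077 in juveniles, which makes adults at least 19665-fold lower. Their adjusted p was 4.08e-05 each, which follows from how they were picked. Both passed the row filter through the juveniles only. No adult of either sex had a read of these 2 transcripts, while both juveniles had them at high levels.

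Calls in females only were the largest class. The 5303 transcripts higher in females only (38.6%) had median normalised counts of 221 and 202 in males, 824 and 906 in females and 185 and 177 in juveniles. The rule of the class sets females above juveniles and favours males near them. These transcripts had a median difference from juveniles of 0.20 in males and 2.19 in females. Females were called higher than males at 4593 of them (86.6%), and the male mean lay on the female side of the juveniles at 65.6%. The 3539 transcripts lower in females only (25.7%) had median normalised counts of 104.1 and 109 in males, 52.2 and 43.7 in females and 171 and 196 in juveniles. Here the males lay between the females and the juveniles, with a median difference of -0.76 in males and -1.95 in females. Males were called higher than females at 1761 (49.8%), and the male mean lay on the female side at 89.1%. With total scaling the male mean lay on the female side at 88.9% of the transcripts higher and at 66.1% of those lower in females only, so the order of these shares turned as well.

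Of all 8842 transcripts called in females only, 6354 (71.9%) were also called between males and females. Over all tested transcripts males were called higher than females at 20.1% and lower at 40.5%. The rule of the class and the selection both favour such a call, here and in each direction above, so these shares are a description. The other 2488 are not shown to differ between the sexes. Transcripts higher in females only held 30.5% and 28.6% of the reads in males and 55.0% and 57.1% in females, against 19.0% and 19.2% in juveniles. Those lower in females only held 21.5% and 25.4% in males and 7.23% and 5.97% in females, against 21.0% and 21.5% in juveniles. For this last class male 1 lay barely above juvenile 3, the higher juvenile. Male 2 lay above both juveniles, and both females lay far below.

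Size was also taken as the male change over the female change on the log2 scale, for transcripts called at 2-fold or more in females. Where females were higher (6975 transcripts) the median male share was 0.19 (quartiles 0.00 and 0.52). It was 0 or below at 25.7% of them and between 0.25 and 0.75 at 26.1%. Where females were lower (5540 transcripts) the median male share was 0.55 (quartiles 0.35 and 0.73), with 60.7% between 0.25 and 0.75. It was 0 or below at 5.11%. The order of the 2 medians turned with the scaling. Median-of-ratios scaling redone on the whole table gave 0.23 and 0.46, and TMM gave 0.32 and 0.41. Upper-quartile scaling gave 0.39 and 0.37, and total scaling 0.48 and 0.30. Because these transcripts were chosen for a large female change, a male share below 1 is favoured by the choice and nothing is read from it.

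**Figure D4:**
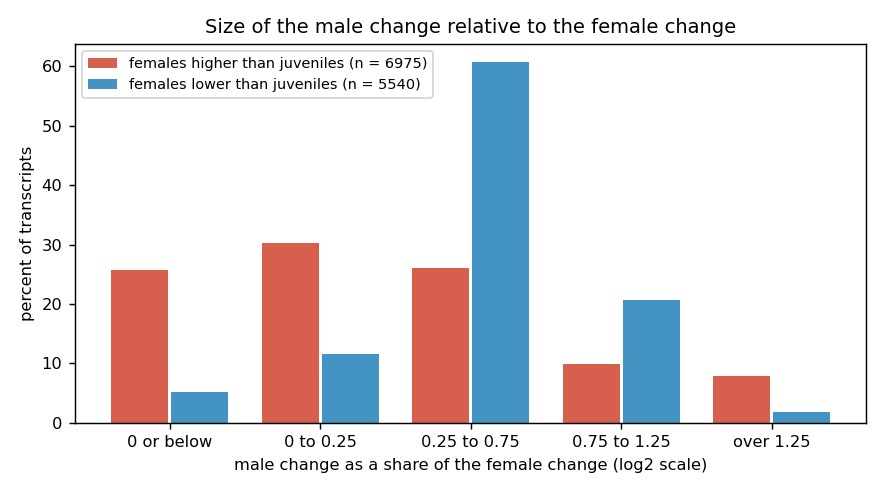
Male change from juveniles as a share of the female change, both on the log2 scale (x axis), in percent of the transcripts called at 2-fold or more in females (y axis), for 6975 transcripts higher and 5540 lower in females. The median share was 0.19 where females were higher and 0.55 where they were lower, an order that turns with upper-quartile and total scaling.

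Opposite directions were rare, at 211 transcripts higher in females and lower in males and 20 lower in females and higher in males. The 211 had median normalised counts of 221 and 225 in males, 1783 and 1773 in females and 480 and 519 in juveniles. Juveniles lay between the sexes, which the rule of the class sets. The 20 had medians of 645 and 694 in males, 219 and 216 in females and 371 and 336 in juveniles. With opposite calls the difference between the sexes is larger than either effect, so that all 231 were also called between males and females. They numbered 29 without juvenile 3, 70 without juvenile 2, 134 to 138 without a female and 133 with upper-quartile scaling.

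Calls in males only were made at 13 transcripts, 9 higher and 4 lower, at 4 by edgeR and at 0 by DESeq2 (unadjusted p under 0.05 at 24, 10 and 1). The selection leaves out transcripts that did not differ between females and juveniles, so this count is no measure of changes that belong to males. It was 308 to 920 with the other scalings, 209 without female 1, 258 without female 2, 70 without juvenile 2, 71 without juvenile 3, 2 without male 1 and 4 without male 2. Reads in both males with 0 reads in females and juveniles were found for 0 transcripts, reads in both females with 0 in males and juveniles for 169. Reads in males and juveniles with 0 in both females were found for 213 transcripts, and reads in females and juveniles with 0 in both males for 9. These 4 counts are shaped by the selection as well.

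The study proposed marker genes of sex, and 21 of the 28 it names were paired with a transcript. At least part of the list was picked by the study on these same fish for differences between the sexes, so its counts are no independent evidence of a direction. Against juveniles, adults were called higher at 15 of the 21, lower at 4 and not called at 2, where 48.8% and 38.2% of all tested transcripts were called higher and lower. The median adult difference was 1.89 on the log2 scale, against 0.59 over all tested transcripts. Males were called higher than juveniles at 4 genes (fkbp5, pdia, rdh10b and cyp17a1) and lower at 0, and 17 had no call, against 16.2% higher and 18.6% lower over all tested. All 4 adults lay above both juveniles at 7 genes and below both at 1, and at the other 13 the values overlapped, against 30.2% above and 34.7% below over all tested. Of the 6 male markers paired 1 was higher in adults and 4 were lower, and of the 15 female markers paired 14 were higher and 0 lower. Not paired were the male markers dmrt1, spata6 and cyp26b1 and the female markers chr4, ipo4, lhcgr and foxl2a.

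**Figure D5:**
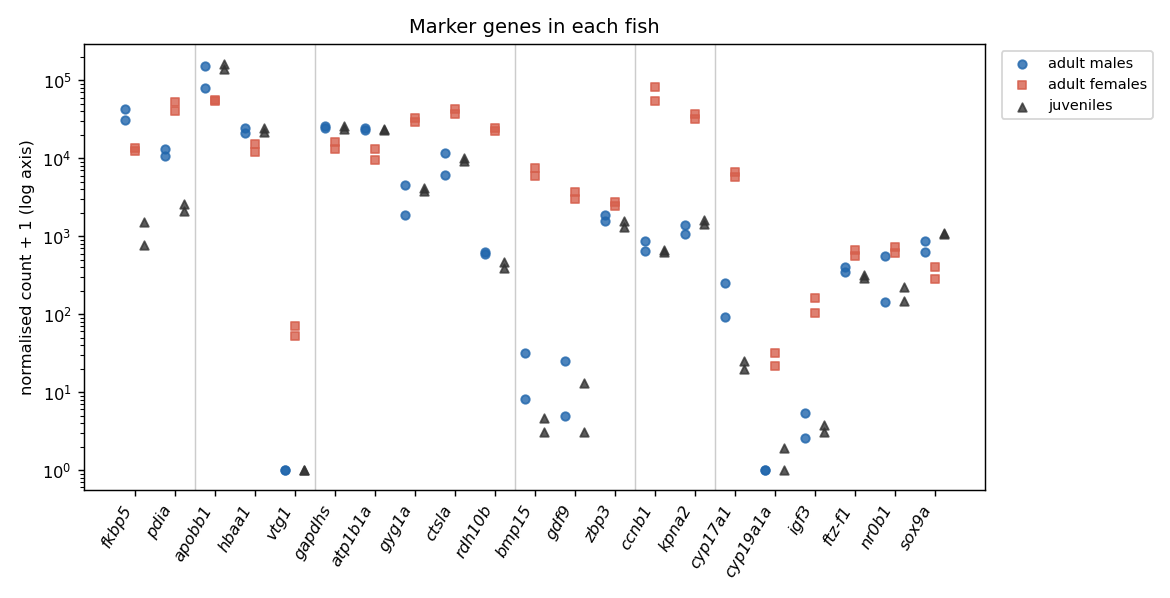
Normalised count + 1 on a log axis (y axis) of 21 marker genes (x axis) in each adult male, adult female and juvenile, with vertical lines between the groups of genes. In fkbp5 and pdia all 4 adults lie far above both juveniles, while in ccnb1 and kpna2 the males lie near the juveniles and only the females are far above.

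Both chaperone genes rose in both sexes. For these and the other genes a fold is a ratio of mean normalised counts. The log2 difference, with its SE and adjusted p, averages the male and female log2 differences. Where females lie far above males, the adult fold is therefore the larger of the 2 measures. Fkbp5, a prolyl isomerase that acts with the glucocorticoid receptor, had 43027 and 30897 normalised counts in males and 13753 and 12559 in females, against 765 and 1520 in juveniles. Males were highest, females were between, and no fish of a group overlapped with another group. Adults averaged 21.9 times the juveniles (log2 difference 4.34 ± 0.29, SE, adjusted p = 0.000305), males 32.4 times and females 11.5 times. Pdia, a protein disulphide isomerase of the endoplasmic reticulum, had 13051 and 10579 normalised counts in males and 40197 and 53011 in females, against 2561 and 2103 in juveniles. Here the females were highest and the males were between. Adults averaged 12.5 times the juveniles (log2 difference 3.33 ± 0.18, SE, adjusted p = 0.00019). The male change alone was 2.34 ± 0.21 (SE, adjusted p = 0.00145).

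Apobb1, an apolipoprotein that carries lipid out of liver and gut, had 154533 and 80684 normalised counts in males and 55243 and 53648 in females, against 140691 and 161111 in juveniles. Male 1 lay between the juveniles and male 2 below them. The adult difference was -0.95 ± 0.29 (SE, adjusted p = 0.0229). Its adjusted p was 0.152 without female 1, 0.17 without female 2, 0.0795 without juvenile 2 and 0.128 without juvenile 3. The male difference of -0.43 ± 0.34 (SE, adjusted p = 0.354) was -0.90 without male 1 (0.0372). Hbaa1, an alpha chain of haemoglobin, had 21273 and 24547 normalised counts in males and 15467 and 11988 in females, against 24586 and 21781 in juveniles. The males overlapped with the juveniles and only the females lay below them. Adults had a difference of -0.39 ± 0.16 (SE, adjusted p = 0.0603), which was called with the median of ratios (0.00728), TMM (0.0291), upper-quartile scaling (0.00712), DESeq2 (0.0462) and without male 2 (0.0493).

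Vtg1, a yolk protein precursor made in the liver of females, had 0 reads in both males, 51.1 and 70.5 normalised counts in females and 0 reads in both juveniles. Reads of the paired transcript were thus found in females only, and adults averaged at least 20.5 times the juveniles, counting 3 reads over the juveniles. The adult call (limma adjusted p = 0.0014) was not made by DESeq2 (adjusted p = 0.0595) or edgeR (adjusted p = 1). The pairing of vtg1 with this transcript is among the least certain ones because its counts are low. It is 1 assembled transcript of its locus (MSTRG.28203.104), so these counts need not be those of the whole gene.

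For gapdhs and atp1b1a the males overlapped with the juveniles and the females lay below both. Gapdhs, a glycolytic dehydrogenase, had 26334 and 24304 normalised counts in males and 16173 and 13282 in females, against 24122 and 25901 in juveniles. The adult difference was -0.38 ± 0.15 (SE, adjusted p = 0.0472). This call was lost with total scaling (0.13), with edgeR (0.0659) and without male 2 (0.0651), female 1 (0.0692), female 2 (0.164), juvenile 2 (0.11) or juvenile 3 (0.191). Atp1b1a, a subunit of the sodium pump, had 24502 and 23207 normalised counts in males and 13056 and 9478 in females, against 23059 and 23811 in juveniles. The adult difference was -0.52 ± 0.17 (SE, adjusted p = 0.0245), lost with total scaling (0.0592) and without female 2 (0.0782), juvenile 2 (0.0928) or juvenile 3 (0.116). The male differences were 0.02 ± 0.17 for gapdhs and 0.03 ± 0.19 for atp1b1a (SE), without a call.

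The other metabolic genes were higher in females. Gyg1a, the protein primer of glycogen synthesis, had 1878 and 4575 normalised counts in males and 29395 and 32685 in females, against 4156 and 3829 in juveniles. The males lay on both sides of the juveniles, and without male 2 the male difference was called lower (-1.09, adjusted p = 0.0134). Adults averaged 4.29 times the juveniles (log2 difference 1.26 ± 0.34, SE, adjusted p = 0.0138), a call lost with upper-quartile scaling (0.0643) and without female 1 (0.0675), female 2 (0.0787), juvenile 2 (0.0702) or juvenile 3 (0.0913). Ctsla, a lysosomal protease of the cathepsin L type, had 6157 and 11559 normalised counts in males and 37064 and 42760 in females, against 10221 and 9344 in juveniles. Males again lay on both sides, with a lower call without male 2 (-0.67, adjusted p = 0.0452). Adults averaged 2.49 times the juveniles (log2 difference 0.91 ± 0.26, SE, adjusted p = 0.0171), a call lost with the median of ratios (0.0943), upper-quartile scaling (0.137) and without female 1 (0.0681), female 2 (0.0889), juvenile 2 (0.0746) or juvenile 3 (0.107).

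Rdh10b, which oxidises retinol in the first step of retinoic acid synthesis, had 631 and 590 normalised counts in males and 22451 and 24520 in females, against 466 and 391 in juveniles. All 4 adults lay above both juveniles, the males slightly and the females far. Adults averaged 28.1 times the juveniles (log2 difference 3.15 ± 0.13, SE, adjusted p = 0.00011), with 1.43 times in males and 54.9 times in females. The male difference of 0.52 ± 0.15 (SE, adjusted p = 0.042) was not called without any 1 of the 6 fish (0.0644 to 0.186), with the median of ratios (0.0558) or with edgeR (0.0612).

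The oocyte growth factors were read far less in males and juveniles than in females. Bmp15, a growth factor secreted by oocytes, had 31.1 and 7.19 normalised counts in males and 5940 and 7429 in females, against 2.12 and 3.70 in juveniles. Both males lay above both juveniles and far below the females. Adults averaged 1152 times the juveniles, a ratio of means set by the females (2298 times) rather than the males (6.59 times). This ratio rests on 2 and 4 juvenile reads and is imprecise. The log2 difference, averaged over the sexes, was 6.42 ± 0.60 (SE, adjusted p = 0.000525). The male difference of 2.08 ± 0.69 (SE, adjusted p = 0.0606) was called with total scaling (0.0335), with DESeq2 (0.00423) and without male 2 (0.0165). Gdf9, a related factor of oocytes, had 24 and 4.0 normalised counts in males and 3021 and 3705 in females, against 2.12 and 12.0 in juveniles. Males and juveniles overlapped, and the male difference was 0.81 ± 0.97 (SE, adjusted p = 0.537). The third gene listed as an oocyte gene, zbp3, differed far less between the groups. Its pairing is uncertain, as its adult values are also those shown for another gene. It had 1572 and 1885 normalised counts in males and 2423 and 2724 in females, against 1569 and 1318 in juveniles. All 4 adults lay above both juveniles, male 1 by a narrow margin. Adults averaged 1.49 times the juveniles (log2 difference 0.55 ± 0.15, SE, adjusted p = 0.0136), a call lost with the median of ratios (0.271), upper-quartile scaling (0.488) and without juvenile 3 (0.0986). The male difference of 0.26 ± 0.17 (SE, adjusted p = 0.269) was called with total scaling (0.0107).

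The genes of cell division and nuclear import rose in adults with no call in males. Ccnb1, the cyclin that drives entry into division, had 860 and 649 normalised counts in males and 53898 and 81366 in females, against 658 and 627 in juveniles. Male 2 lay between the juveniles and male 1 above them. Adults averaged 53.2 times the juveniles (log2 difference 3.45 ± 0.21, SE, adjusted p = 0.000227), with a male difference of 0.22 ± 0.24 (SE, adjusted p = 0.502, and 0.0485 with scaling to the total). Kpna2, an importin alpha that carries proteins into the nucleus, had 1058 and 1411 normalised counts in males and 31502 and 36809 in females, against 1614 and 1423 in juveniles. Both males lay below both juveniles, male 2 by a narrow margin, with a difference of -0.31 ± 0.19 (SE, adjusted p = 0.235). The adult average was 11.7 times the juvenile one (adjusted p = 0.000387).

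Among the genes of gonadal hormones, cyp17a1 rose in both sexes. This steroid hydroxylase, needed for the synthesis of androgens and oestrogens, had 251 and 91.9 normalised counts in males and 5786 and 6642 in females, against 24.3 and 18.5 in juveniles. No groups overlapped. Adults averaged 149 times the juveniles (log2 difference 5.45 ± 0.41, SE, adjusted p = 0.000379), with 8.0 times in males and 290 times in females. The male difference of 2.78 ± 0.48 (SE, adjusted p = 0.00823) had an adjusted p of 0.0688 without juvenile 3. Cyp19a1a, the aromatase of the gonad, had 0 reads in both males, 20.9 and 31.0 normalised counts in females and 0 and 0.925 in juveniles. The ratio of adults to juveniles was 28.0 (95% exact Poisson interval of the 1 juvenile read 5.03 to 1108). The adult call (adjusted p = 0.0106) was not made by edgeR (0.851), by DESeq2 (0.383) or without juvenile 2 (0.0635), and this pairing is as uncertain as that of vtg1.

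Igf3, an insulin-like growth factor of the fish gonad, had 4.45 and 1.60 normalised counts in males and 102 and 161 in females, against 2.12 and 2.78 in juveniles. Males and juveniles overlapped at a few reads each, with 2 and 3 in juveniles, so that the adult fold is imprecise. Adults averaged 27.5 times the juveniles (log2 difference 2.68 ± 0.51, SE, adjusted p = 0.00425). Ftz-f1, a nuclear receptor, had 347 and 402 normalised counts in males and 674 and 550 in females, against 287 and 317 in juveniles. All 4 adults lay above both juveniles. Adults averaged 1.64 times the juveniles (log2 difference 0.66 ± 0.18, SE, adjusted p = 0.0152), a call lost with the median of ratios (0.192), upper-quartile scaling (0.304) and without juvenile 2 (0.0818) or juvenile 3 (0.0551). The male difference of 0.31 ± 0.21 (SE, adjusted p = 0.288) was called with total scaling (0.0316).

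Nr0b1, a corepressor of nuclear receptors, had 563 and 143 normalised counts in males and 733 and 602 in females, against 224 and 146 in juveniles. The males lay apart, male 1 near the females and male 2 just below the juveniles. Adults averaged 2.75 times the juveniles (log2 difference 1.26 ± 0.54, SE, adjusted p = 0.0641). This was called with DESeq2 (0.0193) and without male 2 (0.0044), and without male 2 the male difference was called as well (1.63, adjusted p = 0.0321). Males and females were not called apart (adjusted p = 0.129), but were without male 1 (-2.21, adjusted p = 0.00781). Sox9a, a transcription factor of the testis and of cartilage, had 875 and 634 normalised counts in males and 283 and 400 in females, against 1084 and 1059 in juveniles. It was the only marker gene with all 4 adults below both juveniles. Adults averaged 0.512 times the juveniles (log2 difference -1.09 ± 0.21, SE, adjusted p = 0.00454), while the male difference of -0.52 ± 0.25 (SE, adjusted p = 0.145) was not called.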

How the data were processed

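The authors sequenced RNA from whole zebrafish, with 2 fish in each of the groups adult male, adult female and juvenile. According to their methods and processing notes, reads were mapped to GRCz11 with HISAT2 2.1.0 and transcripts were assembled with StringTie 1.3.4. Reads were counted with featureCounts 1.6.3 and groups were compared with DESeq2. For DESeq2 the methods give the Galaxy version, 2.11.40.2, which is not numbered like the package version used here. The deposited signal values are normalised counts, for which the authors divided the reads of each fish by its size factor (median of ratios). The table also holds log2 fold changes with standard errors, Wald scores and p-values of a comparison made by the authors, and a mark, not explained there, on 47 transcripts. From these only the presence of an adjusted p under 0.05 and the sign were used, to describe the selection of the table.

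All values were whole reads within 0.01 of a read (100% of them). Values plus a pseudocount of 1 were put on the log2 scale and tested with limma-trend from limma 3.58.1 in R 4.3.3. A transcript entered with 10 normalised counts or more in 2 or more fish. The 3 groups were fitted together (3 residual degrees of freedom), with Benjamini-Hochberg adjustment. An adjusted p without a tool beside it is limma's. The adult mean was the mean of the male and the female mean. Folds are ratios of mean normalised counts. Log2 differences are differences of group means on the log2 scale, and SE and adjusted p belong to these and not to the folds. Alternatives were 4 scalings, a pseudocount of 10, no filter, a mean of at least 100, edgeR 4.0.16 and DESeq2 1.42.0 on the recovered reads, a replicate block and leaving out each fish. The 4 scalings were estimated on the transcripts of this table, which is a selection. The fits were tested on simulated data. Summaries were made in Python 3.11.15 (pandas 2.3.3, numpy 2.4.6).

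The genes named were every marker gene of the study that could be paired with a transcript, and the 2 transcripts that rose and the 2 that fell most in both sexes (by the smaller of the 2 changes). The table pairs no gene names with transcripts. The pairs were taken from earlier work on these data that matched the values of each fish to those the study shows for a gene, so a name is an identification by value and not an annotation. The adult values of zbp3 are also those shown for another gene. The members, lists and tests were chosen with earlier results of these data known. No batch is labelled.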

Additional observations from a re-analysis of the deposited data

Results flagged for a closer look

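The male and female effects against juveniles differed at 20 of the 21 marker genes, by a test of the difference itself (limma, adjusted p under 0.05), where 20.1% of all tested transcripts were called higher and 40.5% lower in males than in females. At least part of these genes was picked by the study on these fish for a difference between the sexes, so this is a description of the list. The difference is given as the male minus the female effect on the log2 scale. It was positive for fkbp5 (1.47), sox9a (1.14), atp1b1a (1.10), apobb1 (1.04), gapdhs (0.79) and hbaa1 (0.75). For fkbp5 both effects were rises. Without 1 fish at a time the difference stayed positive for each of these genes, at 1.23 to 1.71 for fkbp5 and 0.57 to 1.51 for apobb1. Several calls were lost in these smaller fits, in which 1 group is left with 1 fish. Leaving out a juvenile does not move this difference, only its estimated spread. The call of fkbp5 was lost without male 1 (adjusted p = 0.0566), female 1 (0.0821) or female 2 (0.109), that of sox9a without female 1 (0.0538) and that of gapdhs without female 2 (0.0927). The call of hbaa1 was lost without male 2 (0.0589) or female 2 (0.135), and that of apobb1 without male 1 (0.0628), female 1 (0.249), female 2 (0.29), juvenile 2 (0.073) or juvenile 3 (0.0724).

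The difference was negative for the other 14 genes. It was -8.68 for bmp15, -8.23 for gdf9, -6.47 for ccnb1, -5.34 for cyp17a1, -5.26 for rdh10b, -5.10 for igf3 and -4.80 for kpna2. It was -3.40 for gyg1a, -2.24 for ctsla and -1.97 for pdia. For vtg1 (-5.93) and cyp19a1a (-4.73) the males had 0 reads, so that these fitted values are no bounds. It was -0.70 for ftz-f1, which was 0.32 with upper-quartile scaling and 0.10 with scaling to the total, and its call was also lost with the median of ratios (adjusted p = 0.634), with TMM (0.565) and without male 1 (0.107), male 2 (0.0558) or female 1 (0.0894). It was -0.58 for zbp3, which was 0.0081 with the median of ratios, 0.44 with upper-quartile scaling and 0.23 with scaling to the total, and its call was also lost with TMM (0.942) and without male 1 (0.1), female 1 (0.0638) or female 2 (0.126). The causes of these differences were not tested.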

How the results depend on the processing

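Of the alternative values computed for the named genes and transcripts, 1445 kept their direction and side of the threshold, 84 lost a call, 26 gained one and 33 changed sign. Relative to the deposited scaling, the adult difference from juveniles shifted by -0.37 (log2) with the median of ratios on the table, -0.12 with TMM, -0.44 with the upper quartile and 0.10 with the total. The shifts were -0.08, 0.16, 0.08 and 0.50 in males and -0.67, -0.40, -0.95 and -0.31 in females, in the same order of scalings. These scalings were estimated on the selected transcripts, so the selection bears on the shifts. With 2 fish a group the precision is set by the fish rather than by the reads.

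Counts that moved over 1.5-fold were these. Calls in males only numbered 560 with the median of ratios, 337 with TMM, 920 with the upper quartile, 308 with the total, 22 with a pseudocount of 10, 7 with a mean of at least 100, 4 with edgeR and 0 with DESeq2. Transcripts lower in both sexes with no call between the sexes numbered 1059 with the median of ratios, 852 with TMM, 606 with the upper quartile, 513 with the total and 1076 with a mean of at least 100. With the upper quartile females were higher at 4879 transcripts and the sexes went in opposite directions at 133. With the total males were higher at 4125 and lower at 1361, and both sexes were higher at 3683 and lower at 1304. A mean of at least 100, which tests fewer transcripts, gave 3107 lower in adults, 3572 lower in females and 5809 called in females only.

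Without 1 fish at a time, adults were higher at 4980 to 6427 transcripts and lower at 2876 to 4850, males higher at 1034 to 1795 and lower at 569 to 2062, and females higher at 6469 to 7707 and lower at 4600 to 5897. Both sexes were higher at 979 to 1784 (no call between them at 535 to 1116) and lower at 524 to 1885 (384 to 1580), and in opposite directions at 29 to 178. Calls in females only numbered 7700 to 10757, of which 4326 to 6359 with a call between the sexes, and calls in males only 2 to 258. Where a group is left with 1 fish, that fish is assumed to vary like the others.

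Signs changed as follows, and among them the differences of zbp3 and of ftz-f1 had been called. With the median of ratios males against juveniles were -0.062 for gapdhs and -0.054 for atp1b1a. For hbaa1 this was 0.14 with TMM, 0.057 with the upper quartile and 0.48 with the total, which also gave 0.067 for apobb1, 0.054 for gyg1a, 0.29 for ctsla and 0.19 for kpna2. Females against juveniles were -0.11 for zbp3 with the upper quartile. Males against females were 0.0081 (median of ratios), 0.44 (upper quartile) and 0.23 (total) for zbp3, 0.32 (upper quartile) and 0.10 (total) for ftz-f1, and 0.20, 0.17 (TMM), 0.63 and 0.41 for MSTRG.2995.1. Without 1 fish, males against juveniles ran from -0.12 to 0.085 for hbaa1, -0.040 to 0.075 for gapdhs, -0.014 to 0.064 for atp1b1a, -1.09 to 0.20 for gyg1a, -0.67 to 0.24 for ctsla, -0.35 to 1.97 for gdf9, -0.40 to 0.67 for igf3, -0.34 to 1.63 for nr0b1, -0.90 to 0.038 for apobb1 and -0.95 to 0.00 for cyp19a1a. The cause of these changes was not tested.

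With a replicate block for the adults, adults were higher at 6589 and lower at 5136 transcripts, males at 2048 and 2346, and both sexes at 2020 and 2156. The block ended the male call of rdh10b (adjusted p = 0.0662) and made an adult call of nr0b1 (0.0337). Across transcripts the difference between males 1 and 2 had r = -0.04 with that between females 1 and 2, and no label ties the numbers to a shared animal or day, so the fish share only a number.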
